A study of Mus musculus with 9 samples.

Results

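The 9 genes described here are Ucp3 and its neighbour and relative Ucp2, the lipid response genes Pdk4, Angptl4, Acot1 and Acot2, the nuclear receptors Ppara and Ppard, and the coactivator gene Ppargc1a. Ucp3 was chosen by its log2 fold change between ifetroban-treated and vehicle-treated knockout hearts in these same libraries, and the other 8 were added because they belong to the same lipid response. All 9 were found by symbol among the 49671 gene identifiers of the count files, and all 9 passed the filter on low counts, which left 15261 genes for testing. Because its response chose it, Ucp3 is described below without a test.

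PPARs are nuclear receptors that bind fatty acids and their derivatives, pair with a retinoid X receptor, and switch on genes for fatty acid uptake, storage and oxidation. In the heart, which draws most of its energy from fatty acids, PPARα and PPARδ carry much of this control, with PGC-1α (the product of Ppargc1a) as a coactivator. UCP3, PDK4, ANGPTL4 and several acyl-CoA thioesterases are textbook products of genes that these receptors switch on when fatty acid supply rises, as in fasting.

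Left ventricle tissue of mice was sequenced as polyA RNA in 4 groups. The groups were dSG knockout mice given ifetroban (3 libraries), dSG knockout mice given vehicle (2 libraries), wild-type mice given ifetroban (2 libraries) and wild-type mice given vehicle (2 libraries). dSG is delta-sarcoglycan, a membrane protein of the dystrophin complex encoded by Sgcd, and ifetroban blocks the thromboxane-prostanoid receptor. The strain, age and sex of the mice, the part of Sgcd that is deleted, and the dose and length of treatment are not given in the sources used here. The labels do not say that each library came from a separate mouse, so the p-values measure the spread between these libraries, which may be technical.

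Each library held 21299748 to 31394548 reads counted in genes. Sgcd stood at 9.77, 16.4 and 18.5 CPM (reads per 1e6 reads counted in genes) in KO ifetroban libraries and 7.49 and 12.1 CPM in KO vehicle libraries, against 33.1 and 31.2 CPM in WT ifetroban libraries and 11.1 and 28.9 CPM in WT vehicle libraries. In Sgcd, the library labelled WT vehicle replicate 1 lay at the knockout level, against its label. On the first principal component it lay at -4.23, among KO libraries and apart from the other WT libraries (-38.2 to -32.4). Timp1 there was 3.18 CPM, against 10.1 CPM or more in KO libraries. Its macrophage and atrial markers summed to 423 and 233 CPM, below every KO library (at least 636 and 374 CPM). The values of members, lists and named genes that rest on it are set out again without it after the lists. KO vehicle replicate 1 stood apart on the first principal component (at 84.4, with the other 8 libraries between -38.2 and 34.2). Long transcripts read low in KO ifetroban replicate 1, both KO vehicle libraries and WT vehicle replicate 1, and high in the other 5 libraries. In those 4, the rank correlation across genes between exonic length and the deviation from the mean of all libraries ran from -0.42 to -0.29, and in the other 5 it ran from 0.30 to 0.39. Sgcd stood at 7.49 to 12.1 CPM in those 4 and at 16.4 to 33.1 CPM in the other 5. The summed level of cardiomyocyte markers was 63230 to 71990 CPM in KO libraries and 77530 to 81000 CPM in WT libraries, so the labelled tissue had its defining transcripts in every library. In bulk tissue, fewer cells of a type and less RNA per cell cannot be told apart.

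Ucp3 and Ucp2 lie head to tail on chromosome 7 of GRCm38, both on the plus strand, at 100472990 to 100486432 and 100493337 to 100502020, with 6904 bases between them. The 250 bases before the start of Ucp3 are shown because Ucp3 is the gene the description turns on and, of the 8 member windows found, its window alone held the half-site AGGTCA, the 6-letter unit that PPAR and retinoid X receptor pairs read as a repeat. The sequence is RefSeq's, from GRCm38.p6, plus strand, and the capitals mark the half-sites.
Ucp3 upstream, chr7:100472741-100472990: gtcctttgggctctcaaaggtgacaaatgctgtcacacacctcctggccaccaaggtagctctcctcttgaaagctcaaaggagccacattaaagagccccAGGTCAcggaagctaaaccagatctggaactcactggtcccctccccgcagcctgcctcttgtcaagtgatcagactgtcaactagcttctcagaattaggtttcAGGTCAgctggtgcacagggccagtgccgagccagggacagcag
The half-sites begin at positions -149 and -44 from the RefSeq start of Ucp3. The RefSeq starts of the windows can differ from the gene coordinates printed here, which are GENCODE's. For Ppara the window runs from 85735526 to 85735825, while the printed gene start is 85734983. Windows of 300 bases (250 before and 50 after the start) were found for 8 members, and AGGTCA stood on either strand in 5340 of all 32851 such windows, which is 16.3%. Direct repeats of the half-site with 1 base between were also searched on both strands. Repeats with the exact unit AGGTCA were in 0.0396% of all windows, repeats with AGGNCA in 0.381%, and the windows of the members held neither. A match describes letters in a window and no match says nothing of the receptors.

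Acot1 and Acot2 lie side by side on the plus strand of chromosome 12, at 84009490 to 84018371 and 83987861 to 83993873, 15616 bases apart. Their coding sequences were identical at 1182 of 1236 aligned bases (95.6%), compared with 75.8% for Ucp3 and Ucp2 and 70.4% for Ppara and Ppard. The stretch of 60 bases in which the Acot1 and Acot2 coding sequences differ most is shown as the most that such a stretch offers to tell them apart. It is not a typical stretch, and capitals mark the 13 differing bases.
Acot1, coding bases 823 to 882: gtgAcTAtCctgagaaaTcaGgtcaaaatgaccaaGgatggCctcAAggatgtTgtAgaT
Acot2, coding bases 946 to 1005: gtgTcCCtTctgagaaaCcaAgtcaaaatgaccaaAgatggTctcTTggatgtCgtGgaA
Of all 50-base words in the exons, 19.3% in Acot1 and 27.7% in Acot2 also occurred in another gene, and reads that matched several places were not counted. The values of Acot1 and Acot2 are uncertain for that reason. No such word was found in Ucp3, Angptl4 or Ppara, and the share was 1.40% in Pdk4 and 3.53% in Ucp2, where the minus-strand gene Dnajb13 overlaps the end of Ucp2.

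Per kilobase of exonic length and averaged over the 9 libraries, Pdk4 was the most abundant member at 75.6 CPM per kilobase, followed by Acot2 at 33.9, Ppargc1a at 14.4, Ppara at 10.5, Ucp3 at 9.57, Ucp2 at 8.18, Ppard at 4.61, Angptl4 at 3.99 and Acot1 at 2.66. The other values below are CPM not divided by length, and are compared only between libraries. Fold changes are log2 values from edgeR with their standard error (SE), and a gene was called at a Benjamini-Hochberg adjusted p under 0.05 over all 15261 genes.

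Ucp3 (ENSMUSG00000032942), which encodes an inner mitochondrial membrane carrier of muscle and heart, was lowest in the knockout hearts given vehicle. It stood at 32.8, 35.1 and 35.8 CPM in KO ifetroban libraries, against 7.72 and 16.0 CPM in KO vehicle libraries. In wild-type hearts it stood at 46.5 and 37.0 CPM with ifetroban, against 33.8 and 25.2 CPM with vehicle. Both KO vehicle libraries lay below the other 7, and those 7 ranged within 25.2 to 46.5 CPM. Of all genes, 18.2% lay wholly lower in KO vehicle than in WT vehicle, and 8.38% wholly higher in KO ifetroban than in KO vehicle. These levels rest on 702, 1143 and 922 reads in KO ifetroban libraries, 166 and 404 in KO vehicle, 1213 and 933 in WT ifetroban, and 658 and 653 in WT vehicle.

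**Figure D1:**
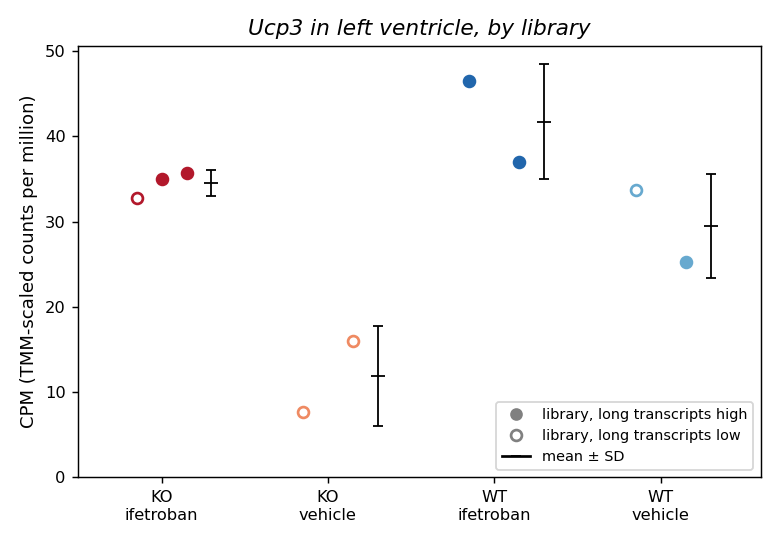
Ucp3 level in CPM in each of the 9 libraries (points, open where long transcripts read low in the library), by group, with the group mean and SD. The KO vehicle libraries, at 7.72 and 16.0 CPM, sit below the 3 KO ifetroban libraries at 32.8 to 35.8 CPM and below all 4 WT libraries at 25.2 to 46.5 CPM.

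In order, the group means of Ucp3 were 41.7 ± 6.76 CPM in WT ifetroban, 34.6 ± 1.54 CPM in KO ifetroban, 29.5 ± 6.04 CPM in WT vehicle and 11.9 ± 5.88 CPM in KO vehicle (SD, n = 2, 3, 2 and 2). The KO ifetroban and WT vehicle libraries overlapped. The WT ifetroban libraries lay above those of KO ifetroban, as for 12.9% of all genes, by a difference in means about as large as the SD of WT ifetroban. The KO vehicle mean was separated from its neighbour in that order by more than either SD.

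The Ucp3 difference that chose it was a log2 fold change of 1.54 ± 0.29 (SE) between KO ifetroban and KO vehicle, or 2.90-fold. Between WT ifetroban and WT vehicle it was 0.50 ± 0.30, with both treated libraries above both vehicle libraries, as for 14.9% of all genes. The difference between these log2 fold changes, below called the interaction of genotype and ifetroban, was 1.03 ± 0.41, and the KO vehicle libraries enter it. Between KO vehicle and WT vehicle the log2 fold change was -1.31 ± 0.31, and between KO ifetroban and WT ifetroban it was -0.27 ± 0.27.

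These Ucp3 values moved with single libraries. The log2 fold change of KO ifetroban over KO vehicle was 1.11 when KO vehicle replicate 1 was left out, and 2.17 when replicate 2 was left out instead. The log2 fold change of KO vehicle over WT vehicle was -0.65 without both KO vehicle replicate 1 and WT vehicle replicate 1, and the difference between the ifetroban log2 fold changes of KO and WT was then 0.38. For KO vehicle over WT vehicle it was -0.87 and -1.94 when replicate 1 or 2 of KO vehicle was left out. The interaction of genotype and ifetroban was then 0.60 and 1.67. Among libraries in which long transcripts read low (1 KO ifetroban and 2 KO vehicle), the difference in mean log2 CPM of Ucp3 was 1.55, and with that class of library as a term in the fit the log2 fold change was 1.62.

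Skeletal muscle, which is rich in Ucp3, was followed by 10 markers, of which 4 were tested. Ckm, which the heart also expresses, made up nearly all of their summed level. Without Ckm, the other 9 markers summed to 2.81, 2.12 and 35.5 CPM in KO ifetroban libraries and 3.35 and 2.46 CPM in KO vehicle libraries, against 1.96 and 2.06 CPM in WT ifetroban libraries and 2.46 and 2.28 CPM in WT vehicle libraries. KO ifetroban replicate 3 thus stood apart from the other 8, and Myh1, a fast myosin, reached 247 reads there. The median log2 fold change of the 4 tested markers was 1.13 for KO ifetroban over KO vehicle (3 of 4 positive). It was 1.83 for KO ifetroban over WT ifetroban and 1.60 for the interaction of genotype and ifetroban, and none of the markers was called by edgeR or DESeq2. Ucp3 in KO ifetroban replicate 3 was 35.8 CPM, against 32.8 and 35.1 CPM in the KO ifetroban libraries without that signal, and its log2 fold change over KO vehicle was 1.52 when replicate 3 was left out.

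Ucp2 (ENSMUSG00000033685), the widely expressed relative of Ucp3 that is abundant in immune cells, had higher means in the knockout groups. It stood at 79.9, 49.6 and 76.9 CPM in KO ifetroban libraries and 86.1 and 58.7 CPM in KO vehicle libraries, against 54.6 and 29.7 CPM in WT ifetroban libraries and 42.8 and 35.9 CPM in WT vehicle libraries. The KO vehicle libraries lay above those of WT vehicle, and 1 KO ifetroban library fell below the higher WT ifetroban library. The log2 fold change averaged over treatments was 0.79 ± 0.22 in KO over WT, which edgeR did not call (adjusted p = 0.144) and DESeq2 did (adjusted p = 0.0194).

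The Ucp2 log2 fold change of KO vehicle over WT vehicle was 0.88 ± 0.33 (edgeR adjusted p = 0.347), and that of KO ifetroban over WT ifetroban was 0.71 ± 0.30 (edgeR adjusted p = 0.979). Leaving out KO vehicle replicate 1 brought the vehicle comparison to 0.58, and leaving out WT ifetroban replicate 1 or 2 brought the ifetroban comparison to 1.21 or 0.33. Averaged over treatments, edgeR called Ucp2 when KO vehicle replicate 2 was left out (0.91, adjusted p = 0.0356), a setting under which it called 13.1% of all genes, against 0.537% with all libraries. Within knockout hearts, ifetroban over vehicle gave -0.07, with overlapping libraries. The 12 macrophage markers, none of which was at 0 in any library, summed to 636 to 864 CPM in KO libraries and 298 to 423 CPM in WT libraries. For KO over WT averaged over treatments, edgeR called 3 of them higher, against 0.537% of all genes called in either direction. It called 0 of them for KO vehicle over WT vehicle and 0 for KO ifetroban over WT ifetroban. The part of those cells in the Ucp2 level was not tested.

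Pdk4 (ENSMUSG00000019577; chromosome 6, 5483351 to 5496309, minus strand) encodes the kinase that shuts off pyruvate dehydrogenase when fatty acids are burned. It stood at 260, 518 and 260 CPM in KO ifetroban libraries and 473 and 128 CPM in KO vehicle libraries, against 168 and 220 CPM in WT ifetroban libraries and 200.1 and 160 CPM in WT vehicle libraries. KO vehicle libraries held both the lowest value and the second highest value of all 9, so their mean of 300.4 ± 245 CPM (SD, n = 2) says little. All KO ifetroban libraries lay above both WT ifetroban libraries, with a log2 fold change of 0.84, and 0 of the Pdk4 comparisons were called.

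Angptl4 (ENSMUSG00000002289; chromosome 17, 33773750 to 33781830, minus strand) encodes a secreted inhibitor of lipoprotein lipase. It stood at 14.2, 13.1 and 5.31 CPM in KO ifetroban libraries and 72.9 and 4.09 CPM in KO vehicle libraries, against 3.72 and 7.37 CPM in WT ifetroban libraries and 4.36 and 2.01 CPM in WT vehicle libraries. The value in KO vehicle replicate 1 was the highest of the 9, and KO vehicle replicate 2 lay between the WT vehicle libraries. The log2 fold change of KO vehicle over WT vehicle was 3.61 ± 1.08 (edgeR adjusted p = 0.274; DESeq2 adjusted p = 0.0929).

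That Angptl4 log2 fold change was 0.38 when KO vehicle replicate 1 was left out, and 4.53 when replicate 2 was left out, in which case edgeR called it (adjusted p = 0.0047) along with 10.9% of all genes. Without both KO vehicle replicate 1 and WT vehicle replicate 1 it was 1.03. Averaged over treatments, Angptl4 had a log2 fold change of 2.29 ± 0.71 in KO over WT (edgeR adjusted p = 0.174), 0.68 when KO vehicle replicate 1 was left out and 2.75 when replicate 2 was (edgeR adjusted p = 0.00372, with 13.1% of all genes called). In KO vehicle replicate 1, liver markers summed to 95.6 CPM, against 2.38 to 9.91 CPM in the other 8 libraries, and a list of glucocorticoid and fasting response genes summed to 2474 CPM, against 1015 to 1472 CPM. Much of that 2474 CPM came from the metallothionein genes Mt1 and Mt2, which peaked in that library at 834 and 657 CPM. No other gene of the list passed 261 CPM in any library. Angptl4 is also made by fat cells, whose defining markers Adipoq, Plin1 and Cidec reached at most 8, 12 and 11 reads in any library; 10 such markers together summed to 423 to 553 CPM in KO libraries and 351 to 598 CPM in WT libraries, most of it Fabp4, which endothelial cells also express. All 5 tested fat cell markers had a positive log2 fold change for KO vehicle over WT vehicle, with a median of 2.23, and 3 of them passed an unadjusted p under 0.05 in edgeR, against 8.26% of all genes. Those 3 were Car3 at 2.65 ± 0.64, Cfd at 2.23 ± 0.61 and Pck1 at 3.91 ± 1.25 (edgeR adjusted p = 0.222, 0.242 and 0.293), each at 2.19 CPM or less in every library, and DESeq2 called Car3 (adjusted p = 0.0147). Averaged over treatments, their median was 1.89 for KO over WT, and DESeq2 called Cfd and Car3. For KO ifetroban over KO vehicle, 1 of the 5 was positive (median -0.46), and Angptl4 stood at -1.82. The part of these signals in the Angptl4 level was not tested.

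Acot1 (ENSMUSG00000072949) and Acot2 (ENSMUSG00000021226) encode the cytosolic and the mitochondrial enzyme that cut long-chain acyl-CoA to free fatty acid. Acot1 stood at 11.4, 22.0 and 6.01 CPM in KO ifetroban libraries and 6.93 and 5.72 CPM in KO vehicle libraries, against 7.48 and 9.43 CPM in WT ifetroban libraries and 12.3 and 12.7 CPM in WT vehicle libraries. The lowest KO ifetroban library lay between the KO vehicle libraries, and KO vehicle lay below WT vehicle throughout.

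The Acot1 log2 fold change of KO ifetroban over KO vehicle was 1.06 ± 0.44 (edgeR adjusted p = 0.688), and without KO ifetroban replicate 2 it was 0.46. In wild-type hearts both ifetroban libraries lay below both vehicle libraries (log2 fold change -0.56). The difference between the ifetroban log2 fold changes of KO and WT was 1.62 ± 0.64 for Acot1 (edgeR adjusted p = 1.0), or 1.02 without KO ifetroban replicate 2. The uncertainty of the Acot1 and Acot2 counts holds for each of these values.

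Acot2 stood at 70.3, 99.8 and 71.0 CPM in KO ifetroban libraries and 57.5 and 68.2 CPM in KO vehicle libraries, against 72.8 and 77.8 CPM in WT ifetroban libraries and 70.2 and 83.1 CPM in WT vehicle libraries. The KO ifetroban libraries lay above both KO vehicle libraries (log2 fold change 0.35, not called), by a narrow margin of 70.3 CPM in the lowest KO ifetroban library against 68.2 CPM in the higher KO vehicle library. Ucp3 was the only other member whose KO ifetroban and KO vehicle libraries did not overlap.

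**Figure D2:**
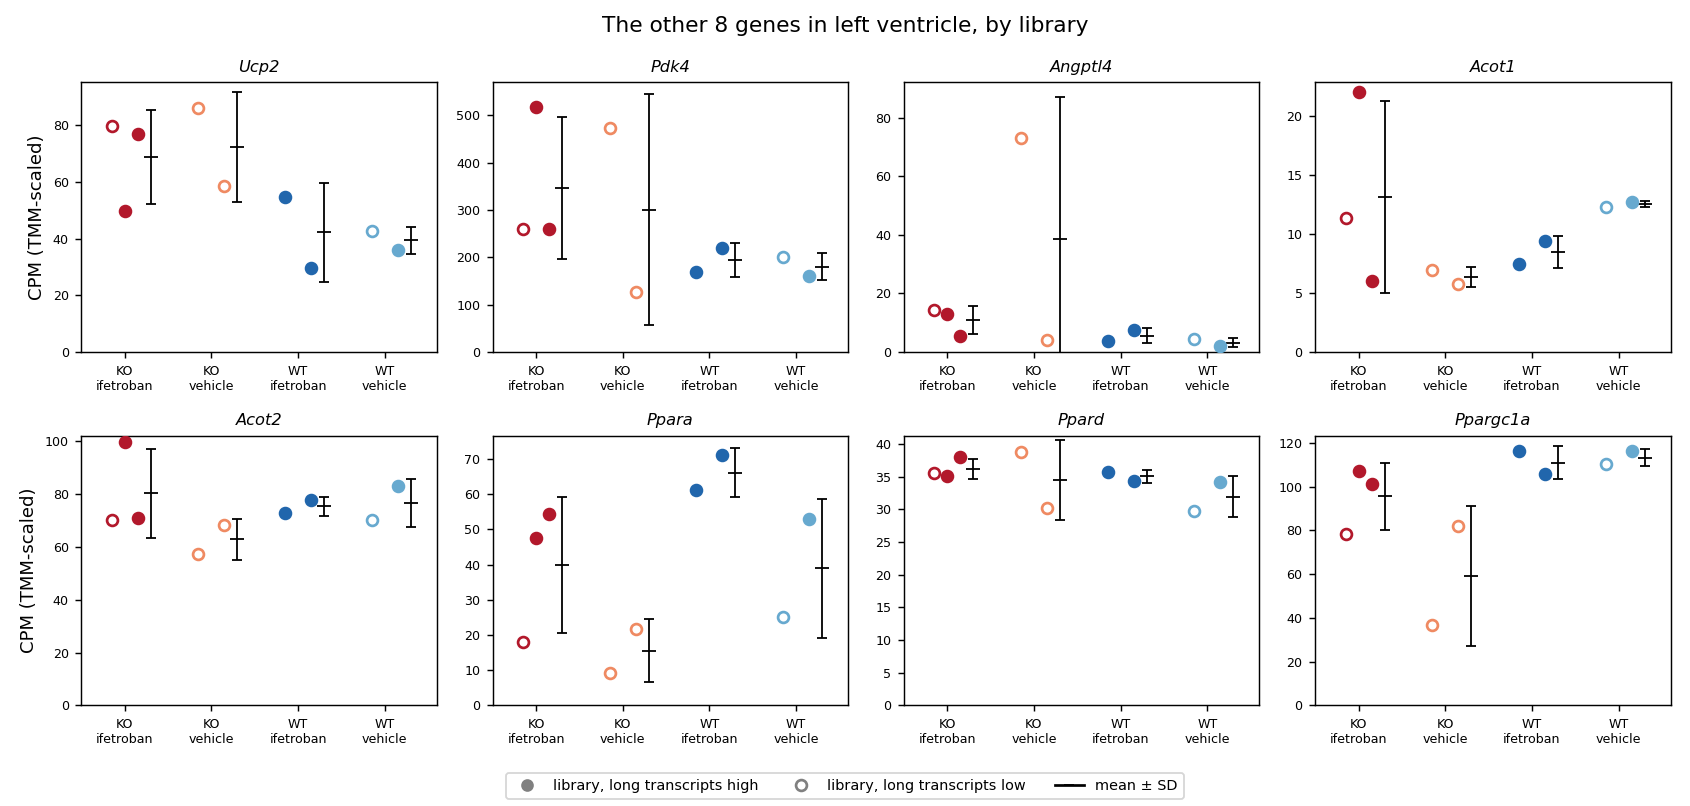
Level in CPM (vertical axis, own scale for each gene) of the 8 members other than Ucp3 in each library (points, open where long transcripts read low), by group, with the mean and SD (the lower SD bar of Angptl4 in KO vehicle would pass below 0 and ends at the axis). The KO vehicle libraries lie far apart for Pdk4 (473 and 128 CPM) and Angptl4 (72.9 and 4.09 CPM), while all 9 libraries of Ppard fall within 29.7 to 38.8 CPM.

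Ppara (ENSMUSG00000022383; chromosome 15, 85734983 to 85802819, plus strand) encodes the main fatty acid receptor of the oxidising heart. It stood at 18.1, 47.4 and 54.3 CPM in KO ifetroban libraries and 9.17 and 21.8 CPM in KO vehicle libraries, against 61.2 and 71.2 CPM in WT ifetroban libraries and 25.0 and 52.9 CPM in WT vehicle libraries. KO ifetroban replicate 1 lay between the KO vehicle libraries, both KO vehicle libraries lay below both WT vehicle libraries, and both WT ifetroban libraries lay above both WT vehicle libraries. The log2 fold change was 1.36 ± 0.52 in KO ifetroban over KO vehicle (edgeR adjusted p = 0.688), -1.33 ± 0.55 in KO vehicle over WT vehicle (edgeR adjusted p = 0.377), and 1.06 ± 0.37 for ifetroban over vehicle averaged over genotypes (edgeR adjusted p = 0.620).

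The Ppara level followed the class of the libraries by length trend. It was 9.17 to 25.0 CPM in the 4 libraries in which long transcripts read low and 47.4 to 71.2 CPM in the other 5, and 13.6% of all tested genes separated the libraries in that direction. With that class of library as a term in the fit, the Ppara log2 fold change was 0.34 in KO ifetroban over KO vehicle and -0.57 in KO vehicle over WT vehicle. With offsets for transcript length instead, it was 1.39 in KO ifetroban over KO vehicle and 1.09 for ifetroban over vehicle averaged over genotypes, close to the values without them. The exonic length of Ppara is 3836 bases, against 3135 for Ucp3 and 2196 for Acot2. Acot2 also separated the classes, at 57.5 to 70.3 and 71.0 to 99.8 CPM, and for Ppara the ifetroban difference and the library class cannot be fully told apart because both KO vehicle libraries are of 1 class.

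**Figure D3:**
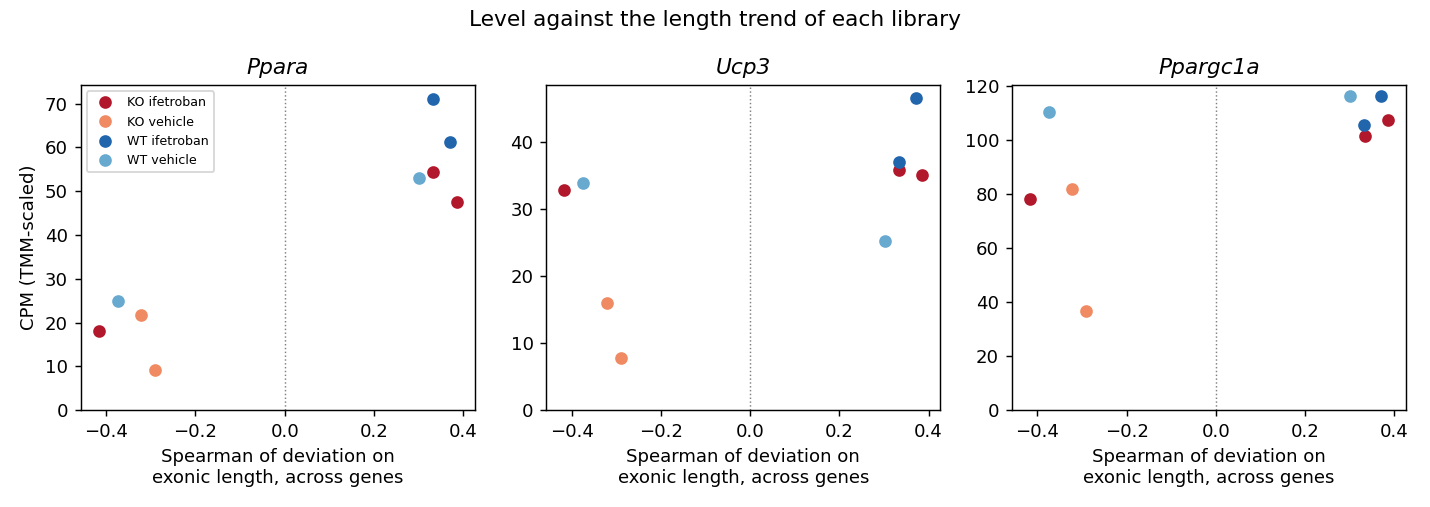
Rank correlation across genes between exonic length and each library's deviation from the mean of all libraries (horizontal axis) against the level in CPM (vertical axis), 1 point a library, coloured by group, for Ppara, Ucp3 and Ppargc1a. The 4 libraries at -0.42 to -0.29 hold all Ppara values of 25.0 CPM and less, whereas Ucp3 in WT vehicle replicate 1 and KO ifetroban replicate 1, at 33.8 and 32.8 CPM, lies among the libraries of the other class.

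Ppard (ENSMUSG00000002250; chromosome 17, 28232700 to 28301474, plus strand), the receptor found in most tissues, had the narrowest relative range of the 9 genes. It stood at 35.6, 35.1 and 37.9 CPM in KO ifetroban libraries and 38.8 and 30.1 CPM in KO vehicle libraries, against 35.7 and 34.3 CPM in WT ifetroban libraries and 29.7 and 34.2 CPM in WT vehicle libraries. Its log2 fold changes lay at 0.07 in KO ifetroban over KO vehicle, 0.13 in WT ifetroban over WT vehicle and 0.11 in KO vehicle over WT vehicle, and none of them was called.

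Ppargc1a (ENSMUSG00000029167; chromosome 5, 51454250 to 51567726, minus strand) encodes the coactivator that joins PPARs to the transcription of mitochondrial genes. It stood at 78.3, 107 and 101 CPM in KO ifetroban libraries and 36.8 and 82.0 CPM in KO vehicle libraries, against 116 and 106 CPM in WT ifetroban libraries and 111 and 116 CPM in WT vehicle libraries. KO vehicle replicate 1 was the lowest of the 9, and KO vehicle replicate 2 lay just above KO ifetroban replicate 1. The log2 fold change was 0.69 ± 0.30 in KO ifetroban over KO vehicle (edgeR adjusted p = 0.688) and -0.93 ± 0.32 in KO vehicle over WT vehicle (edgeR adjusted p = 0.314).

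Here too KO vehicle replicate 1 carried much of the difference. Without it the Ppargc1a log2 fold change was 0.22 in KO ifetroban over KO vehicle and -0.47 in KO vehicle over WT vehicle. Without KO vehicle replicate 2 these were 1.39 (edgeR adjusted p = 0.0258) and -1.63 (edgeR adjusted p = 0.00656), with the lone library assumed to vary like the other groups; edgeR then called 2.81% and 10.9% of all genes in these comparisons. For Ppara the KO vehicle over WT vehicle log2 fold change was -0.84 and -2.10 when replicate 1 or replicate 2 of KO vehicle was left out, and -0.69 when WT vehicle replicate 2 was; for KO ifetroban over KO vehicle it was 0.87 and 2.14. Averaged over treatments, KO over WT was -1.03 ± 0.37 for Ppara and -0.57 ± 0.21 for Ppargc1a (edgeR adjusted p = 0.220 and 0.237), and when KO vehicle replicate 2 was left out edgeR called both, at -1.41 and -0.92 (adjusted p = 0.0492 and 0.00523), with 13.1% of all genes called.

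**Figure D4:**
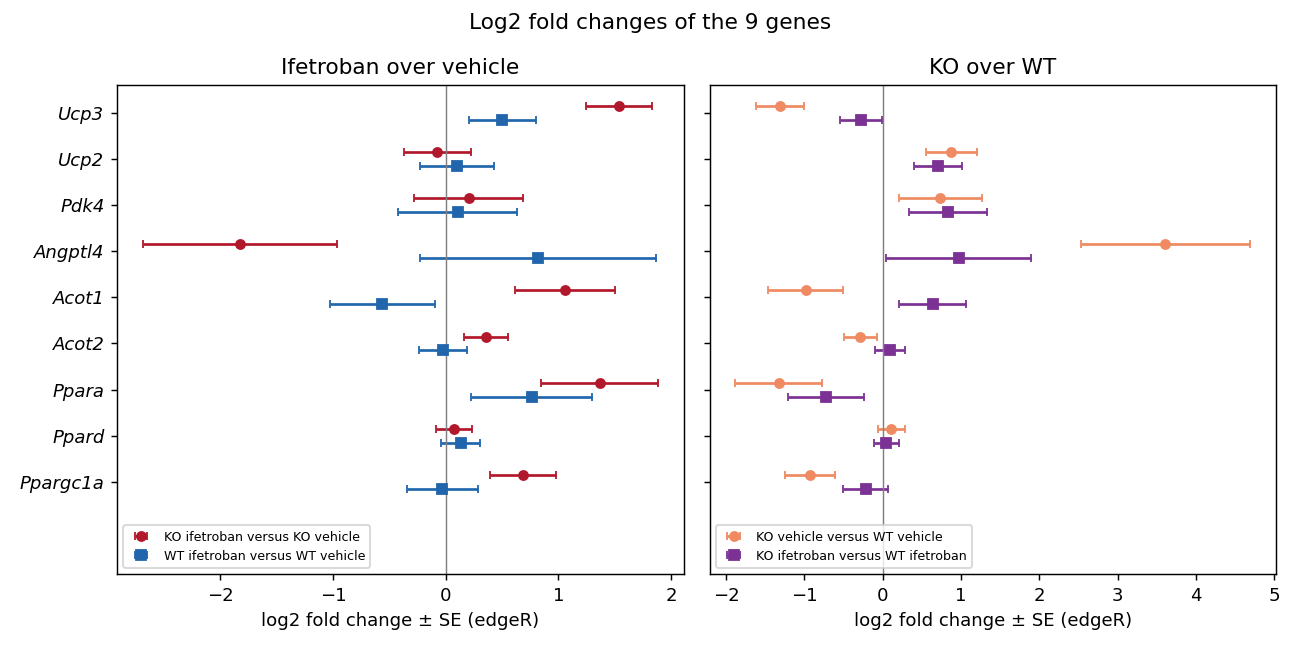
Log2 fold change (horizontal axis) with its standard error for each of the 9 members in the 4 group comparisons, from the edgeR fit of all 9 libraries. Ucp3 and Ppara lie at 1.54 and 1.36 for KO ifetroban over KO vehicle and at -1.31 and -1.33 for KO vehicle over WT vehicle, and Angptl4 at 3.61 for KO vehicle over WT vehicle has an SE of 1.08.

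Counted over the 8 members other than Ucp3, edgeR called 0 in each of the 7 comparisons. Across all genes, it called 0% for KO ifetroban over KO vehicle and 0% for WT ifetroban over WT vehicle. It also called 0% for ifetroban averaged over genotypes and 0% for the interaction of genotype and ifetroban. The share called was 0.0524% for KO vehicle over WT vehicle, 0.0131% for KO ifetroban over WT ifetroban, and 0.537% for KO over WT averaged over treatments. DESeq2 called Ucp2 alone among the 8, in KO over WT averaged over treatments, where it called 4.94% of all genes. In the other 6 comparisons, DESeq2 called 0 of the 8 and few genes in all. The shares were 0.0197% for KO ifetroban over KO vehicle, 0% for WT ifetroban over WT vehicle and 0.00655% for ifetroban averaged. They were 0% for the interaction of genotype and ifetroban, 2.44% for KO vehicle over WT vehicle and 0.470% for KO ifetroban over WT ifetroban.

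At an unadjusted p under 0.05 in edgeR, 3 of the 8 (Acot1, Ppara and Ppargc1a) were higher in KO ifetroban than in KO vehicle, against 2.59% of all genes. None of the 8 passed that limit for WT ifetroban over WT vehicle, against 1.26% of all genes in either direction. For KO vehicle over WT vehicle 4 of the 8 passed it, Ucp2 and Angptl4 higher (8.26% of all genes) and Ppara and Ppargc1a lower (4.25% of all genes). In KO over WT averaged over treatments Ucp2 and Angptl4 were again higher (10.6% of all genes) and Ppara and Ppargc1a lower (5.94% of all genes). Ucp2 alone passed for KO ifetroban over WT ifetroban, against 3.85% of all genes higher, and Ppara alone for ifetroban averaged over genotypes, against 2.46%. Acot1 alone passed for the interaction of genotype and ifetroban, against 0.740%. These counts are of genes picked with results of these libraries known, and the comparisons share libraries, with KO vehicle in 2 of the 4 group comparisons.

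By overlap of libraries, Acot2 was the only 1 of the 8 whose KO ifetroban libraries all lay above KO vehicle, where 8.38% of all genes did so, and 0 of the 8 lay wholly below, where 7.58% did. For KO vehicle against WT vehicle, Ucp2 lay wholly above (16.8% of all genes) and Ppara, Ppargc1a, Acot1 and Acot2 wholly below (18.2% of all genes). For WT ifetroban against WT vehicle, Ppara and Ppard lay wholly above (14.9% of all genes) and Acot1 wholly below (16.5%). For KO ifetroban against WT ifetroban, Pdk4 lay wholly above (16.1%) and Ppara wholly below (12.9%). The median log2 fold change of the 8 was 0.28 for KO ifetroban over KO vehicle, against -0.02 over all genes, and -0.09 for KO vehicle over WT vehicle, against -0.01 over all genes.

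The wider PPAR system held 18 partners and coregulators and 36 further target genes, of which 18 and 31 were tested; Fgf21, Cyp4a10, Cyp4a14, Creb3l3 and Acaa1b had too few reads. None of these genes was called by edgeR in the 4 group comparisons. Among the partners, 16 of 18 had a positive log2 fold change in KO ifetroban over KO vehicle (median 0.31), 12 of 18 in WT ifetroban over WT vehicle (median 0.08) and 4 of 18 in KO vehicle over WT vehicle (median -0.36). Among the other targets, 26 of 31 were positive in KO ifetroban over KO vehicle (median 0.18), 10 of 31 in WT ifetroban over WT vehicle (median -0.08) and 2 of 31 in KO vehicle over WT vehicle (median -0.33). KO vehicle enters the first and the last of these comparisons, and 47.6%, 47.2% and 48.5% of all genes were positive in the 3 comparisons in that order. The partners summed to 995 CPM in KO vehicle replicate 1, 1312 CPM in KO vehicle replicate 2 and 1270 to 1714 CPM in the other libraries. The other targets summed to 15730, 18670 and 17560 to 24090 CPM in that order. How far these counts and medians rest on KO vehicle replicate 1 was not tested.

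Among the partners, the smallest p-values for KO ifetroban over KO vehicle belonged to Ppargc1b, a relative of Ppargc1a, with a log2 fold change of 0.65 ± 0.24, to Esrrg, an oestrogen-related receptor that works with PGC-1α, with 0.75 ± 0.30, and to Lpin1, a phosphatidate phosphatase and coactivator, with 0.56 ± 0.22 (edgeR adjusted p = 0.688 for each). For KO vehicle over WT vehicle, Lpin1 had a log2 fold change of -0.83 ± 0.24 (edgeR adjusted p = 0.266; DESeq2 adjusted p = 0.0575). Averaged over treatments, DESeq2 called Lpin1 and Esrrg lower in KO (log2 fold change -0.53 and -0.66 in edgeR, DESeq2 adjusted p = 0.0474 and 0.0495).

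Among the further targets, Ehhadh, an enzyme of peroxisomal fatty acid oxidation, had a log2 fold change of 0.64 ± 0.23 for KO ifetroban over KO vehicle, Cpt1a, which loads fatty acids for mitochondrial import, 0.60 ± 0.24, and Vldlr, a lipoprotein receptor, 0.68 ± 0.31 (edgeR adjusted p = 0.688 for each). For Plin2, a lipid droplet coat protein, the log2 fold change was -0.54 ± 0.36 for KO ifetroban over KO vehicle and 1.0 ± 0.40 for KO vehicle over WT vehicle (edgeR adjusted p = 0.688 and 0.369), the signs that Angptl4 had. The signs of Ehhadh and Vldlr for KO vehicle over WT vehicle were those of Ucp3, at -0.65 ± 0.25 and -0.84 ± 0.33 (edgeR adjusted p = 0.355 and 0.360). That sign is not particular to them, as only 2 of the 31 tested targets were positive in that comparison.

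The closest families of the members showed no common direction. The 3 tested relatives of the uncoupling proteins had a median log2 fold change of 0.25 for KO ifetroban over KO vehicle, and Ucp1 was at 0 in 7 of 9 libraries. Of 10 genes of the pyruvate dehydrogenase complex and its kinases and phosphatases, 8 were positive for KO ifetroban over KO vehicle (median 0.13) and 1 for KO vehicle over WT vehicle (median -0.35). Of 9 other acyl-CoA thioesterases tested, 4 were positive for KO ifetroban over KO vehicle (median -0.04). Acot3, a peroxisomal thioesterase beside Acot1 and Acot2, had a log2 fold change of 1.33 ± 0.42 for KO ifetroban over KO vehicle (edgeR adjusted p = 0.688) and -1.50 ± 0.45 for KO vehicle over WT vehicle (edgeR adjusted p = 0.274). Its level was low, at 0.318 to 1.08 CPM and at most 29 reads in any library. The 6 tested genes of lipoprotein lipase regulation had medians of 0.07 and -0.23 in those comparisons.

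Outside the pathway, glucocorticoid and clock genes were followed because both systems act on several members. Of 17 glucocorticoid and fasting response genes, 10 were positive for KO ifetroban over KO vehicle (median 0.20) and 9 for KO vehicle over WT vehicle (median 0.03). Mt2, a metallothionein, had the smallest p of that list for KO vehicle over WT vehicle, with a log2 fold change of 3.26 ± 1.17 (edgeR adjusted p = 0.335). Of 14 clock genes, 10 were positive for KO ifetroban over KO vehicle (median 0.15) and 3 for KO vehicle over WT vehicle (median -0.40). Their part in the members' levels was not tested.

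Without the library labelled WT vehicle replicate 1, edgeR called 0 of the 8 members in all 7 comparisons. For KO vehicle over WT vehicle the log2 fold change was then -1.11 for Ucp3, 0.99 for Ucp2, 4.23 for Angptl4, -1.79 for Ppara, -0.99 for Ppargc1a, -1.03 for Acot1 and -0.01 for Ppard. For WT ifetroban over WT vehicle it was 0.73 for Ucp3, -0.58 for Acot1, 0.33 for Ppara, against 0.76 with all libraries, and 0.04 for Ppard. Averaged over treatments, KO over WT was 0.84 for Ucp2, 2.59 for Angptl4, -1.26 for Ppara and -0.61 for Ppargc1a, and ifetroban over vehicle averaged over genotypes was 0.86 for Ppara. The difference between the ifetroban log2 fold changes of KO and WT was 0.82 for Ucp3 and 1.66 for Acot1.

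The lists also shifted without that library. For KO vehicle over WT vehicle, 3 of 18 PPAR partners and 6 of 31 other targets were positive (medians -0.47 and -0.25), and for WT ifetroban over WT vehicle 11 of 18 and 16 of 31 were (medians 0.04 and 0.01). For KO vehicle over WT vehicle the median was -0.37 for the pyruvate dehydrogenase list, -0.11 for lipoprotein lipase regulation, 0.24 for the glucocorticoid and fasting list, -0.14 for the clock genes and 1.97 for the fat cell markers. Among named genes, the log2 fold change of KO vehicle over WT vehicle was -0.95 for Lpin1, 1.18 for Plin2, -0.67 for Ehhadh, -1.07 for Vldlr, -1.28 for Acot3 and 4.82 for Mt2. Averaged over treatments, KO over WT was -0.59 for Lpin1 and -0.75 for Esrrg. None of these named genes was called by edgeR without that library.

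**Figure D5:**
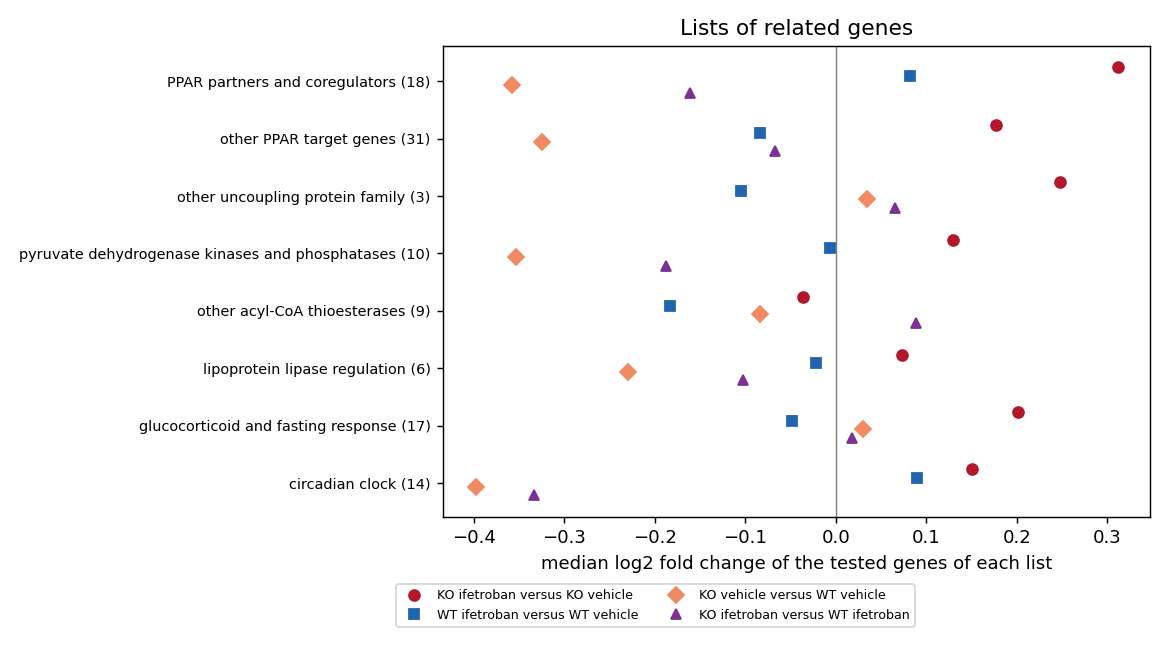
Median log2 fold change (horizontal axis) of the tested genes of each list (rows, with the number of genes), 1 symbol for each of the 4 group comparisons. For KO ifetroban over KO vehicle and KO vehicle over WT vehicle, which share the KO vehicle libraries, the medians lie at 0.31 and -0.36 for the PPAR partners and at 0.18 and -0.33 for the other PPAR targets. KO vehicle replicate 1 had the lowest summed level of each of these PPAR lists.

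Across the 9 libraries, Ucp3 was compared with 11142 genes of sufficient level by Pearson correlation of log2 CPM, as a description. The 5 most alike were Atp2b1, a plasma membrane calcium pump (r = 0.98), Map2k4, a stress kinase (r = 0.96), F8, coagulation factor VIII (r = 0.96), Sec23a, a vesicle coat protein (r = 0.95), and Elmod3 (r = 0.95). The 3 least alike were Umps, an enzyme of pyrimidine synthesis (r = -0.94), Znhit6 (r = -0.93) and Myl9, a myosin light chain of smooth muscle (r = -0.93). The points share the 2 low KO vehicle libraries: without them r was 0.75 for Atp2b1, 0.70 for Map2k4, 0.94 for F8, 0.45 for Sec23a and 0.69 for Elmod3, and -0.59 for Umps, -0.46 for Znhit6 and -0.49 for Myl9. Atp2b1 itself spanned a small range, at 79.9, 82.0 and 84.7 CPM in KO ifetroban libraries and 68.6 and 74.1 CPM in KO vehicle libraries, against 84.8 and 84.0 CPM in WT ifetroban libraries and 82.3 and 80.6 CPM in WT vehicle libraries.

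Among the members, Ppargc1a was most like Ucp3 (r = 0.88 over 9 libraries, 0.085 without the KO vehicle libraries), followed by Ppara (0.79, and 0.26 without them). Acot2 followed at 0.60, Acot1 at 0.36, Ppard at -0.14, Pdk4 at -0.24, Ucp2 at -0.41 and Angptl4 at -0.59. Without the KO vehicle libraries each of these 6 had the opposite sign, with Acot2 at -0.23, Acot1 at -0.41, Ppard at 0.23, Pdk4 at 0.069, Ucp2 at 0.22 and Angptl4 at 0.24. Among the other pairs, the r values largest in size were 0.86 for Ppara and Ppargc1a, 0.82 for Pdk4 and Angptl4, 0.77 for Acot1 and Acot2, and -0.86 for Angptl4 and Ppargc1a. KO vehicle replicate 1 held the highest Angptl4 value and the lowest Ppara and Ppargc1a values of the 9 libraries. How far the r values of these pairs rest on the KO vehicle libraries was not tested.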

How the data were processed

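PolyA RNA of left ventricle from 9 libraries was aligned with STAR 2.5.2b to GRCm38 and HTSeq was also named, per the submitters' processing notes. The authors deposited 1 table a library with unnormalized gene counts in 3 strand settings. The reverse-strand counts (column 4), which exceeded the forward ones 14.5-fold, were used. Rows that name no gene held 26.6% to 31.9% of each library and stayed out of the totals. Symbols, coordinates and exonic lengths came from the GENCODE M21 annotation of GRCm38, which matched 49326 of 49671 identifiers. Promoter windows came from RefSeq, GRCm38.p6.

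Counts were tested with edgeR 4.0.16 (R 4.3.3) by quasi-likelihood F test, with TMM normalization, filterByExpr and 1 coefficient for each of the 4 groups (5 residual degrees of freedom). P-values were adjusted by Benjamini-Hochberg over 15261 genes. CPM values use TMM-scaled library sizes. Likeness to Ucp3 was computed on log2 CPM (prior count 2) over genes whose mean log2 CPM exceeded 1. Standard errors were obtained as the log2 fold change over sqrt(F). Alternatives, 19 in all, included DESeq2 1.42.0, other filters, length offsets, a term for the library class of length, a replicate block and leaving out libraries.

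The members and gene lists were chosen with earlier results of these data known. Named genes are the members, up to 3 of smallest p in each list, and the 5 most and 3 least like Ucp3. Plin2, and Ehhadh and Vldlr in KO vehicle over WT vehicle, were named after their values were seen. Ucp3 has no test in any comparison because its response chose it.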

Additional observations from a re-analysis of the deposited data

How the results depend on the processing

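Leaving out KO vehicle replicate 2 raised the members called by edgeR, of the 8 other than Ucp3, to 2 for KO ifetroban over KO vehicle, 2 for KO vehicle over WT vehicle and 5 for KO over WT averaged over treatments; over all 15957 genes then tested it called 449, 1734 and 2098, against 0, 8 and 82 with all libraries. Over all libraries left out in turn, these counts ran from 0 to 2, 0 to 2 and 0 to 5, and were 0 throughout in the other 4 comparisons. DESeq2 called 1 (Ucp2, averaged over treatments). Without a filter on low counts edgeR called 4 for KO ifetroban over KO vehicle, 1 for ifetroban averaged and 2 for the interaction of genotype and ifetroban. It then called 6 for KO vehicle over WT vehicle, 3 for KO ifetroban over WT ifetroban and 5 for KO over WT averaged. That fit of 27246 genes estimated infinite prior degrees of freedom, against 4.65 in 15261 genes, and a filter of 10 summed reads, added after seeing the data, called 0 members in all 7 comparisons. Across all genes, KO over WT averaged gave 82 calls, 1684 without a filter, 754 by DESeq2, 142 with length offsets and 9 with the library class as a term; KO vehicle over WT vehicle gave 8, 1195, 373, 18 and 1. KO ifetroban over WT ifetroban gave 2, 428, 69, 2 and 1. Without a filter, 428 genes were called for KO ifetroban over KO vehicle and 34 for WT ifetroban over WT vehicle. For ifetroban averaged 290 were called and for the interaction of genotype and ifetroban 73, against 0 in each of these 4 with the filter.

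The deviations of same-numbered libraries of different groups correlated at 0.00108 to 0.478. In a group of 2 libraries the deviations mirror each other, so these values cannot decide whether a replicate number marks a pair. With the replicate number as a block, edgeR called 2 members for KO over WT averaged (Ucp2 at 0.74, adjusted p = 0.0257, and Ppara at -1.28, adjusted p = 0.0153) and 531 genes in all, against 45 for KO vehicle over WT vehicle. None of the 8 tested members was called by edgeR with all libraries, so no called value could change its sign. The member log2 fold changes printed in the text with an SE kept their sign under every alternative run. Others did not, such as Ppard for KO vehicle over WT vehicle, at 0.11 with all libraries and -0.01 without WT vehicle replicate 1. Each group but KO ifetroban had 2 libraries, which limits every difference here.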
